A study of Mus musculus with 9 samples.

Results

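The cyclins D, E, A and B are the regulatory subunits that switch on the cyclin-dependent kinases of the cell cycle. The 8 genes Ccnd1, Ccnd2, Ccnd3, Ccne1, Ccne2, Ccna2, Ccnb1 and Ccnb2 were chosen by symbol, and every probe set paired with exactly 1 of them on the array was taken. This gave 16 probe sets for 7 of the 8 genes, out of 20380 probe sets paired with 1 gene (12393 genes). Ccnb1, the other main B-type cyclin, had no probe set of its own and has no value here. Of the 16 probe sets, 14 passed a filter on low signal, and 2 of the 7 probe sets for Ccnd2 (1416123_at and 1416124_at) stayed at or below a signal of 32.8 on every array and were not tested.

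RNA was measured in primary mouse megakaryocytes, the platelet-forming cells of the marrow, at 4 stages named MKP, MK3, MK4 and MK6, with 2, 2, 2 and 3 Affymetrix MOE430A arrays. The cells came from bone marrow or fetal liver and were grown with thrombopoietin, the main growth factor of megakaryocytes. They were sorted by flow cytometry for CD41, a megakaryocyte integrin chain, and by forward scatter, which follows cell size. Cultures of days 3, 4 and 6 were collected, numbers that MK3, MK4 and MK6 carry in their names. The labels give neither a day for MKP nor a strain, age, genotype or tissue for each array, and name no agent other than thrombopoietin. Nothing in them says that replicate arrays stem from separate cultures. The p-values therefore rest on the spread between arrays alone, and that spread may be technical. Replicate numbers are names in the order of deposit and pair nothing across stages. In bulk RNA of sorted cells, fewer cells of a type and less RNA per cell cannot be told apart.

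Cyclins are made and destroyed in waves, and each wave hands the cycle on to the next. D-type cyclins bind Cdk4 and Cdk6 in response to growth factors and begin the phosphorylation of the retinoblastoma protein. E-type cyclins with Cdk2 take the cell into S phase, cyclin A2 works through S and G2, and B-type cyclins with Cdk1 bring on mitosis until the anaphase-promoting complex marks them for destruction. Megakaryocytes are known for endomitosis, in which cells copy their DNA and enter mitosis but do not divide, so that one nucleus comes to hold many genomes.

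Signals are the deposited values after each array was multiplied to a common trimmed mean of 161. They have no absolute unit, and the signal of one probe set is not set against that of another. Differences are in log2(signal + 15.2), which understates changes of dim probe sets, and ± marks the standard error in limma. A probe set was called at an adjusted p (Benjamini-Hochberg over all 14516 tested probe sets) under 0.05.

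The arrays did not stand equally. The beta-actin control's 3' to 5' signal ratio is a measure of RNA fragmentation. It was 0.957 to 1.09 on the 6 arrays of MKP, MK3 and MK4. For MK6 it stood at 1.49 (replicate 1), 1.33 (replicate 2) and 3.21 (replicate 3). GAPDH, a second control, had a ratio of 0.805 to 0.970 before MK6. At MK6 it reached 3.27 on replicate 3 but only 0.996 on replicate 1 and 1.13 on replicate 2. By GAPDH, then, only MK6 replicate 3 stood far apart. Scaling multiplied MK6 replicate 1 by 1.57 and MK6 replicate 3 by 1.58, and every other array by 0.729 to 1.32. Over the 8 megakaryocyte markers with a probe set of 10 listed, signals summed to 8916 to 9260 on MKP and 15844 to 19197 on MK6. Pf4 was the largest part of this sum on every array. On each MK6 array Itga2b, Gp1bb, Gp5, Pf4 and Vwf were above both MKP arrays, and Ppbp and Itgb3 were below both. Gp9 overlapped between MKP and MK6. Itga2b, which encodes CD41, had a signal of 977 to 3678. MK3 replicate 1 had a megakaryocyte sum of 9201 against 19339 on the other MK3 array. All 9 neutrophil markers passed the filter, though Elane lay below its level on MK6 replicates 1 and 3. Their sum was 37014 and 44918 on MKP, 24246 to 34119 on MK3 and MK4, and 12085, 27443 and 6392 on MK6 replicates 1, 2 and 3. All 7 macrophage markers also passed, with sums of 3525 to 14245, the highest on MK3 replicate 1. The 5 hepatocyte markers with a probe set of 6 listed summed to 2913 and 3682 on MK3 and to 124 to 861 elsewhere. Signals of mast cell, erythroid and lymphocyte markers summed to 1823 or less on every array. The beta-actin ratio was higher on every MK6 array than on any other array, so its part at MK6 cannot be told apart from that of the stage. The part of other cells in the cyclin values was not tested.

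Across the 14 tested cyclin probe sets, 11 had a lower mean at MK6 than at MKP, against 44.6% of all 14516. The median difference was -0.27 for the 14 and 0.08 over all. The 14 read only 7 genes, with 5 probe sets for Ccnd2, and are not independent. For cyclin E1 and for 1 of the 2 probe sets of cyclin A2, the MK6 arrays all lay below both MKP arrays. Cyclin B2 was nearly level from MKP to MK4 and then ranged over 21-fold among the 3 MK6 arrays, cyclin D2 also spread widely there, and cyclin D3 stayed within a narrow band. With limma, 0 of the 14 were called for MK6 against MKP, where 6.91% of all tested probe sets were called, and 2 of the 14 had an unadjusted p under 0.05. The MK6 arrays all lay below the MKP arrays for 2 of the 14, against 21.1% of all probe sets, and all above them for 0, against 22.6%.

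**Figure D1:**
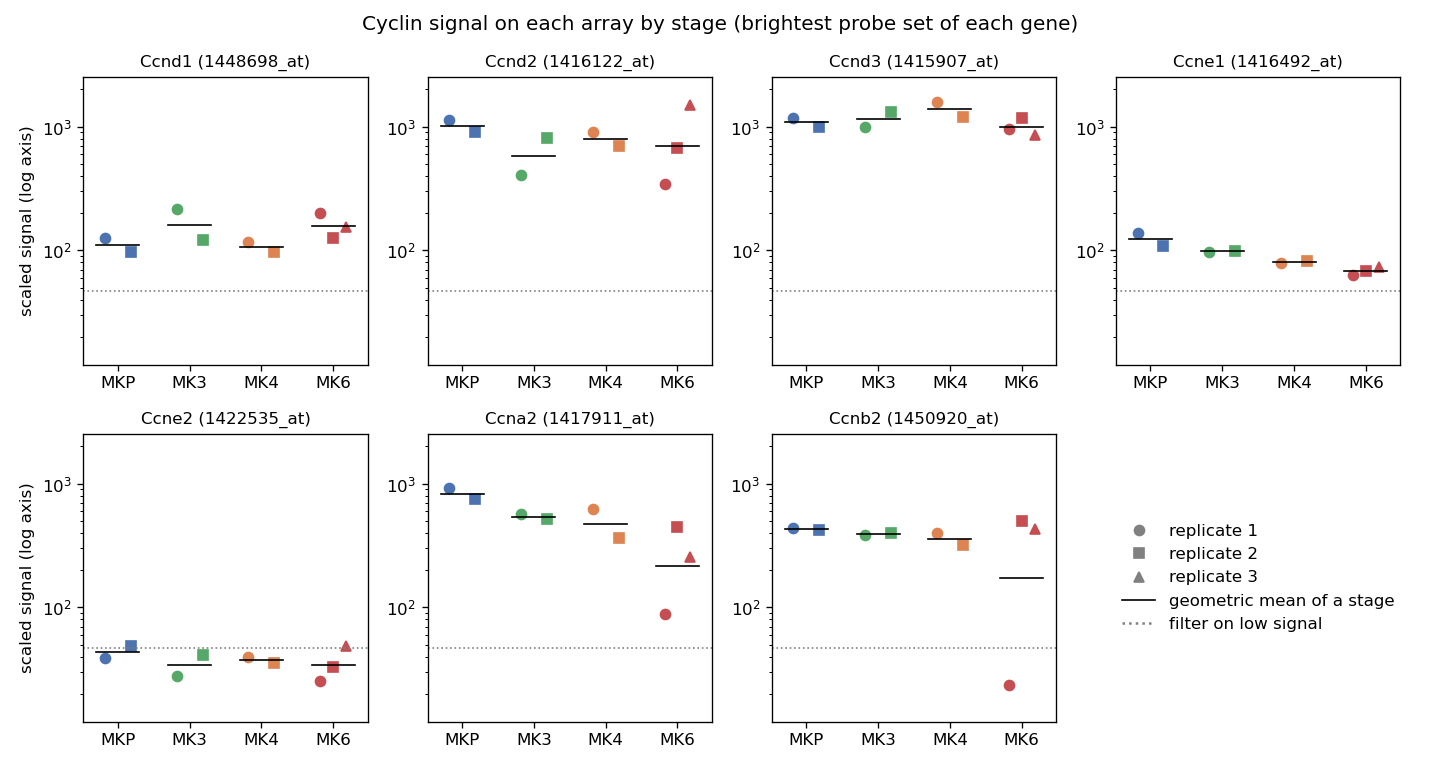
Scaled signal (log axis) of the brightest probe set of each of the 7 measured cyclin genes on every array at MKP, MK3, MK4 and MK6; points are arrays, bars are geometric means of a stage, and the dotted line is the filter on low signal at 46.7. Ccne1 is lower at each stage than at the one before, and on MK6 replicate 1 Ccnb2 is at 23.7 and Ccna2 at 87.9.

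Cyclin D3, read by 1415907_at, was the steadiest of the D-type cyclins, which couple growth factor signals to Cdk4 and Cdk6. Its signal was 1168 and 999 at MKP, 989 and 1319 at MK3, 1589 and 1195 at MK4, and 953, 1177 and 852 at MK6. Both MK4 arrays were above both MKP arrays and all MK6 arrays, and the other stages overlapped. MK6 differed from MKP by -0.13 ± 0.26 (limma adjusted p = 0.773), with a 95% interval of -0.69 to 0.43, so changes of that size in either direction are not excluded by these arrays.

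The promoters of 4 of the 8 genes (Ccnd3, Ccne1, Ccnb1 and Ccnb2) were in the RefSeq table of build GRCm38.p6, as 5 windows from 250 bases before to 50 bases after the gene's start. Those of Ccnd3, Ccne1 and Ccnb2 are shown because they belong to a D-, an E- and a B-type cyclin with a signal here. The 250 bases before the start are printed 5′ to 3′ on the strand of the gene, Ccnd3 at chr17:47593217-47593466 (plus strand, nearer of 2 windows to the 3′ end of the gene), Ccne1 at chr7:38107491-38107740 (minus strand) and Ccnb2 at chr9:70421555-70421804 (minus strand). Capitals mark CCAAT, the core of the box bound by NF-Y, and TTTGAA, a form of the CHR element of many mitotic genes.
Ccnd3: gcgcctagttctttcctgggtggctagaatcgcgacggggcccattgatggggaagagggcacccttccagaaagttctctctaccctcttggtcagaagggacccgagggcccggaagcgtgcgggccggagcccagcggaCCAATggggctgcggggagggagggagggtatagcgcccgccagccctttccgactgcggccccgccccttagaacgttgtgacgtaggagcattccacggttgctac
Ccne1: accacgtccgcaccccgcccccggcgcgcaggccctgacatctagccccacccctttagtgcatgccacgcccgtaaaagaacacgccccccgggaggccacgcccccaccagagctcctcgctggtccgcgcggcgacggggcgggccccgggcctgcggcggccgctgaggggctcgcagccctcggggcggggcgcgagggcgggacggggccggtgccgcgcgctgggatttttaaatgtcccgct
Ccnb2: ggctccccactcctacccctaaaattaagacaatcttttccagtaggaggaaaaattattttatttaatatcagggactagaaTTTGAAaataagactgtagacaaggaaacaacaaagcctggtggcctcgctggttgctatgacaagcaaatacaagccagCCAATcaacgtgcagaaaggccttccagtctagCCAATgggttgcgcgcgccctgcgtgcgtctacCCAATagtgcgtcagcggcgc
Ccnb2 held CCAAT 3 times, at 87 to 83, 54 to 50 and 21 to 17 bases before the start, and TTTGAA at 167 to 162 bases before it and again at 5 to 10 bases after it. Ccnd3 held CCAAT 1 time in this window, at 108 to 104 bases before the start, and neither CCAAT nor TTTGAA in its other window. Ccne1 held neither, and TTTAAA, another form of the CHR element, at 15 to 10 bases before the start. Ccnb1, which has no signal here, held CCAAT at 99 to 95 and 67 to 63 and TTTAAA at 42 to 37 bases before the start. On either strand, CCAAT was in 37.4% of all 32851 windows of 300 bases, TTTGAA in 17.9% and TTTAAA in 13.2%. No window of these 4 genes held an E2F site spelled TTTCCCGC, TTTCGCGC, TTTGCCGC or TTTGGCGC, which were in 2.26% of all windows. A match or its lack describes these letters in these windows.

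Cyclin D2, another partner of Cdk4 and Cdk6, had 5 tested probe sets, of which 1416122_at was the brightest. Its signal was 1126 and 900 at MKP, 409 and 810 at MK3, 903 and 703 at MK4, and 346, 665 and 1501 at MK6. The MK6 arrays held both the lowest and the highest value of the 9, and MK3 replicate 1 was the second lowest. MK6 differed from MKP by -0.51 ± 0.50 (limma adjusted p = 0.544). Without MK6 replicate 1 that difference was -0.01 and without MK6 replicate 3 it was -1.04, so its size rested on which MK6 array was kept.

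The other Ccnd2 probe sets moved with it from array to array. Pearson's r of their log2 values with 1416122_at over the 9 arrays was 0.98 for 1434745_at, 0.97 for 1455956_x_at, 0.94 for 1430127_a_at and 0.78 for 1448229_s_at. These probe sets read the same transcript on the same arrays and are not independent. On MK6 replicates 1, 2 and 3, 1430127_a_at had a signal of 121, 410 and 788, against 671 and 603 on MKP. The MK6 range of the 5 probe sets was 1.79 to 2.56 in log2, at the 94.8th to 99.3rd percentile of all tested probe sets, whose median MK6 range was 0.75. MK6 minus MKP was -0.86 for 1430127_a_at, -0.31 for 1434745_at, -0.17 for 1455956_x_at and 0.05 for 1448229_s_at, and the lowest limma adjusted p among these was 0.373. That of 1430127_a_at was -0.16 without MK6 replicate 1 and -1.44 without MK6 replicate 3.

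Cyclin D1, the third D-type cyclin, was dim. Its brightest probe set, 1448698_at, had a signal of 126 and 98 at MKP, 217 and 120 at MK3, 118 and 98 at MK4, and 202, 125 and 153 at MK6. MK3 replicate 1 and MK6 replicate 1, which were low for Ccnd2, were the highest for this probe set. MK6 minus MKP was 0.44 ± 0.30 (limma adjusted p = 0.376). The other probe sets, 1417420_at and 1417419_at, ranged from 23.3 to 89.6 and from 10.1 to 62.5 over the 9 arrays, with differences of -0.13 and 0.02 for MK6 against MKP. For 1417420_at, MK6 replicate 1 was the lowest of the 9 arrays. The probe sets of Ccnd1 did not follow each other: r over the 9 arrays was -0.34, 0.21 and 0.20 for their 3 pairs.

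Cyclin E1, the Cdk2 partner at the entry to S phase, showed the most even course. The signal of 1416492_at was 139 and 108 at MKP, 96.9 and 99.8 at MK3, 79.5 and 82.6 at MK4, and 63.6, 67.9 and 73.2 at MK6. At every step all arrays of the later stage lay below all arrays of the earlier one in scaled signal. This held for 0.276% of all tested probe sets (40 of 14516) and for no other cyclin probe set. The opposite order, higher at each step, held for 0.193% and for no cyclin. The order depended on the scaling. Before it, MK3 replicate 2, with a scale factor of 0.729, lay above both MKP arrays. MK6 minus MKP was -0.73 ± 0.24 (95% interval -1.27 to -0.19), a 0.604-fold level. The unadjusted p was 0.0126 and the limma adjusted p 0.0997, so the difference did not pass over all probe sets. In each of the 23 alternative analyses it stayed negative, from -1.02 to -0.50, and it was called in none. Leaving out arrays could not turn that sign, because all MK6 arrays lay below both MKP arrays. The 3 MK6 arrays were closer to each other than for most probe sets, with a range of 0.17 in log2, at the 4.08th percentile. Cyclin E2 (1422535_at), which also binds Cdk2, was near the filter of 46.7 everywhere, from 25.4 to 49.2, and passed on MKP replicate 2 and MK6 replicate 3. Its MK6 minus MKP difference was -0.24 ± 0.35 (limma adjusted p = 0.697).

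Cyclin A2, which drives DNA synthesis and the approach to mitosis, had the largest MK6 minus MKP difference of the 14 probe sets. The signal of 1417911_at was 917 and 745 at MKP, 570 and 514 at MK3, 623 and 362 at MK4, and 87.9, 448 and 253 at MK6. Every array of the later stages lay below both MKP arrays, while MK6 replicate 2 overlapped with MK4. The difference was -1.85 ± 0.50 for MK6 against MKP (95% interval -2.94 to -0.75), or 0.278-fold, with a limma adjusted p of 0.0501. For MK6 against MK3 it was -1.25 (limma adjusted p = 0.224) and for MK6 against MK4 -1.07 (limma adjusted p = 0.441). The F test over all 4 stages gave a limma adjusted p of 0.178.

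Whether this probe set passed depended on the MK6 arrays kept. Without MK6 replicate 3, limma called no cyclin probe set (lowest limma adjusted p = 0.107), where 2.18% of all probe sets were called. With MK6 replicate 1, its lowest array, left out, 8.12% of all were called. The difference was then smaller at -1.26 and the limma adjusted p was 0.0417. Without MK6 replicate 2, where 12.2% of all were called, they were -2.34 and 0.0123. Without MKP replicate 1 or 2 it was 0.310 or 0.216, but there the lone MKP array is assumed to vary like the other stages and 0.0349% or 0.125% of all probe sets were called. The other Ccna2 probe set, 1417910_at, had a signal of 567 and 492 at MKP, 402 and 481 at MK3, 438 and 396 at MK4, and 218, 516 and 306 at MK6. MK6 replicate 2 lay between its MKP arrays, and MK6 minus MKP was -0.67 ± 0.32 (limma adjusted p = 0.213). Without MK6 replicate 2 it was -0.99 and was called (limma adjusted p = 0.0385), and without MK6 replicate 1 it was -0.40 (limma adjusted p = 0.406).

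Cyclin B2, a Cdk1 partner in mitosis, was read by 1450920_at. Its signal was 435 and 422 at MKP, 387 and 401 at MK3, 395 and 319 at MK4, and 23.7, 498 and 432 at MK6. MK6 replicate 1 was far below every other array, while MK6 replicate 2 was the highest of the 9. This MK6 range, 3.72 in log2, was at the 99.9th percentile of all tested probe sets, whereas the MKP range of 0.04 was at the 10.6th. MK6 minus MKP was -1.10 ± 0.84 (limma adjusted p = 0.435) with all arrays and 0.11 (limma adjusted p = 0.802) without MK6 replicate 1, so the direction of the mean rested on that array.

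**Figure D2:**
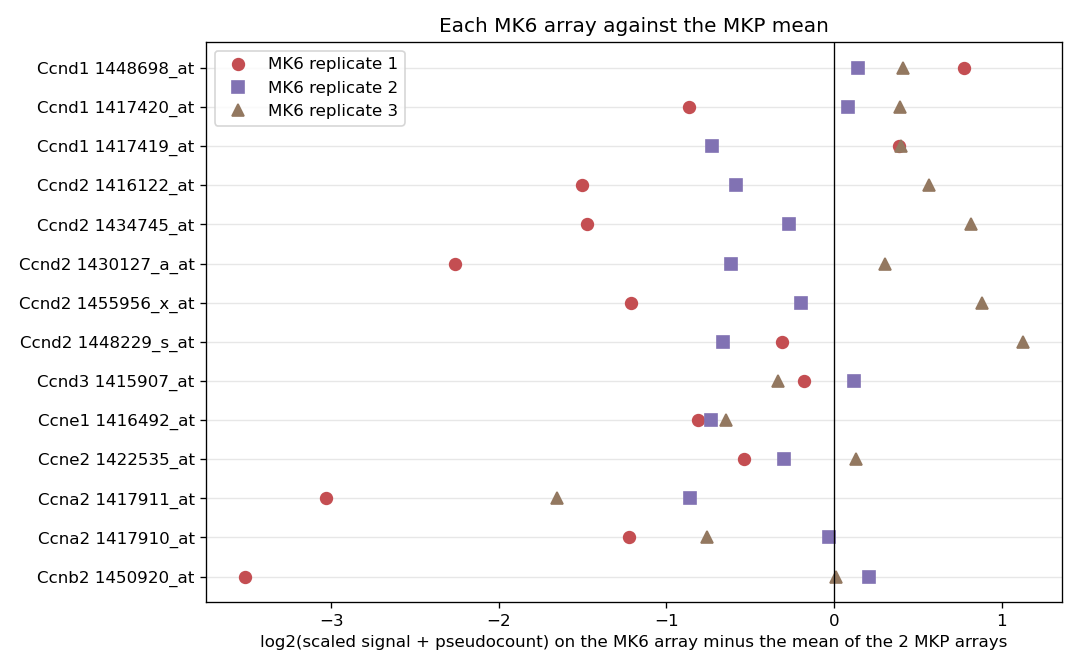
Each of the 3 MK6 arrays minus the mean of the 2 MKP arrays, in log2(scaled signal + 15.2), for the 14 tested cyclin probe sets; points are arrays and the vertical line is no difference. MK6 replicate 1 is at -3.51 for Ccnb2 and -3.03 for Ccna2 (1417911_at), and the 3 arrays of Ccne1 lie between -0.81 and -0.64.

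The 3 MK6 arrays differed in which cyclins they held. MK6 replicate 1 was the lowest of the 3 for 10 of the 14 probe sets, against 30.9% of all tested probe sets. MK6 replicate 3 was the highest for 9 of the 14, against 26.1%. All 5 tested probe sets of Ccnd2 are among those 9, so repeated readings of 1 transcript weigh on these counts. Set against the MKP mean, Ccna2 (1417911_at) was at -3.03, -0.86 and -1.65 on replicates 1, 2 and 3, and Ccnb2 at -3.51, 0.21 and 0.01. Ccnd2 (1416122_at) was at -1.50, -0.59 and 0.57, so its order of the arrays was not that of cyclin A2 or B2. Ccne1 was at -0.81, -0.73 and -0.64, below the MKP mean by nearly the same amount on each array. The promyelocyte protease gene Elane, a neutrophil marker, had a signal of 31.8, 620 and 36.6 on the same 3 arrays, against 3666 and 3315 on MKP. Not all neutrophil markers differed as much. S100a9 was at 5334, 8374 and 2472, against 9257 and 7225 on MKP. The sum of the 9 markers was 12085, 27443 and 6392, against 44918 and 37014 on MKP. The part of these markers in the cyclin values was not tested.

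**Figure D3:**
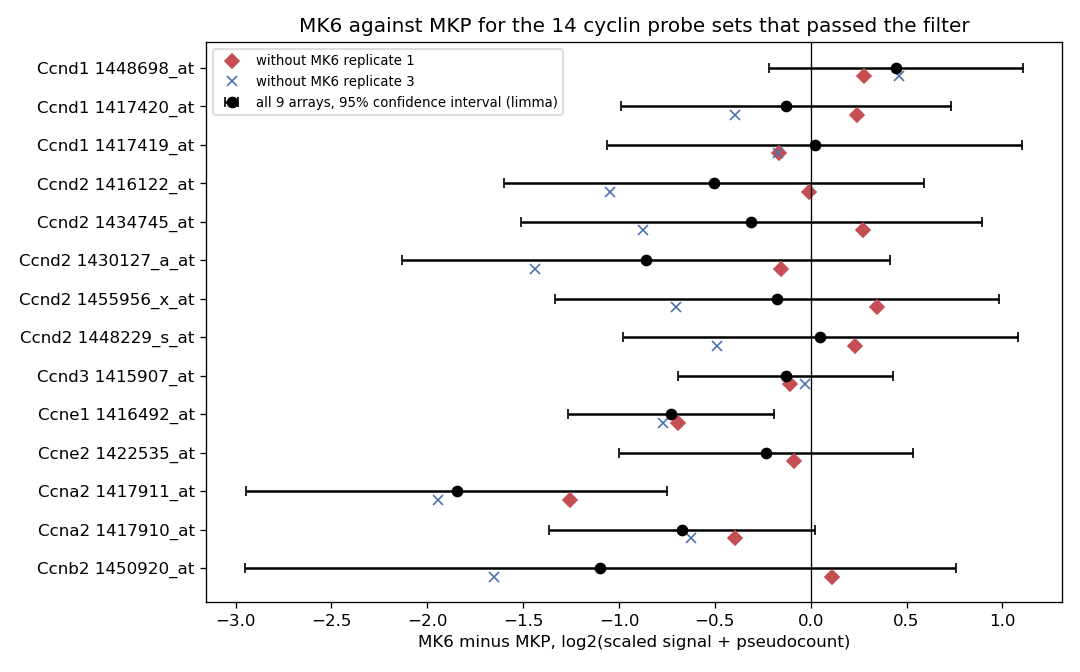
MK6 minus MKP in log2(scaled signal + 15.2) for the 14 tested cyclin probe sets; black points with bars are the limma difference and its 95% confidence interval over all 9 arrays, diamonds leave out MK6 replicate 1 and crosses MK6 replicate 3 (Ccne2 has no cross because it then failed the filter). The intervals of Ccne1 and of Ccna2 1417911_at lie below 0, and Ccnb2 moves from -1.10 to 0.11 without MK6 replicate 1.

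For MK3 against MKP, 0 of the 14 cyclin probe sets were called by limma and 0 had an unadjusted p under 0.05, where 0.0758% of all tested probe sets were called. Both MK3 arrays lay below both MKP arrays for 7 of the 14, against 28.2% of all probe sets, and above them for 1, against 17.9%. These 7 were 3 probe sets of Ccnd2, both of Ccna2, and those of Ccne1 and Ccnb2, and the 1 above was Ccnd1 1417420_at. For MK4 against MK3, MK6 against MK4 and MK4 against MKP, limma called 0 of the 14, with 0 at an unadjusted p under 0.05, where 0.0138%, 0.0276% and 0% of all tested probe sets were called. For MK6 against MK3, 0 of the 14 were called and 1 (Ccna2 1417911_at) had an unadjusted p under 0.05, where 2.31% of all were called. The F test over the 4 stages likewise called 0 of the 14, with 1 (the same probe set) at an unadjusted p under 0.05, against 2.59% of all. These comparisons share arrays and are not independent.

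Whether the cyclins changed unequally was tested on the difference of their log2 signals within an array, over the 21 pairs of the 7 genes. An exact permutation F test over the 7560 assignments of arrays to stages, for which the smallest possible p is 0.00079, gave a lowest p of 0.0817 (0.486 after Benjamini-Hochberg adjustment over the 21 pairs). No pair of cyclins was therefore shown to change differently over the stages, Ccne1 and Ccnb2 included. Over the 14 pairs of probe sets of the same gene, the lowest exact permutation p was 0.0516 (0.275 adjusted over the 14). A p above the threshold does not show that the courses were alike.

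The genes most like each cyclin over the 9 arrays were named by Pearson's r of log2 signals, as a description of arrays that share stage and RNA quality. Ccna2 was closest to Mcm5, a subunit of the replicative helicase (r = 0.99), to the mitotic kinase gene Aurka and to Ercc6l, which encodes a helicase of mitotic chromosomes (both r = 0.99). Ccnb2 was closest to the spindle genes Spag5 and Haus1 and to the exosome subunit gene Exosc1 (r = 0.99 for each). Ccne1 was closest to Mrps18a, which encodes a mitochondrial ribosomal protein (r = 0.97), Ptprcap and the splicing factor gene Prpf31 (r = 0.95 for both). Ccnd2 was closest to Zc3h15 (r = 0.97), Cdc123 (r = 0.96) and the DNA methyltransferase gene Dnmt3b (r = 0.95). Ccne2, which was dim, was closest to Dnmt3b as well (r = 0.95), with Polr1d (r = 0.94) and Gpn1 (r = 0.94). Ccnd3 was closest to P2rx1, an ATP-gated channel gene of platelets (r = 0.94), Tango2 (r = 0.92) and Btd (r = 0.91), and Ccnd1 to Lair1 (r = 0.94), Rps6kl1 (r = 0.93) and Wdr45b (r = 0.93).

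The genes that work with the cyclins were followed by 8 lists of 92 genes, each gene read by its brightest probe set. For MK6 against MKP, limma called 3.25% of all 9397 genes lower and 3.01% higher, and the median difference over all genes was 0.13. Of the kinases that cyclins activate, 4 of 5 were measured, limma called 0 (1 had an unadjusted p under 0.05), and their median difference was -0.90. Cdk4, the partner of the D-type cyclins, had a signal of 1039 and 819 at MKP, 501 and 596 at MK3, 606 and 471 at MK4, and 250, 582 and 423 at MK6. All later arrays of Cdk4 lay below both MKP arrays, and MK6 minus MKP was -1.19 ± 0.32 (limma adjusted p = 0.0511). Cdk1, the partner of cyclins A2 and B2, was at 954 and 833 at MKP, 735 and 770 at MK3, 849 and 628 at MK4, and 41.1, 831 and 552 at MK6. It was lowest on MK6 replicate 1, as Ccnb2 was, and its difference was -1.60 ± 0.85 (limma adjusted p = 0.263). Cdk2, the partner of the E-type cyclins, differed by -0.61 (limma adjusted p = 0.222).

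The inhibitors that hold these kinases back did not share one course: of the 6 measured of 8 listed, 2 rose, 0 fell, and the median difference was 0.06. Cdkn1a, which encodes p21, was at 747 and 631 at MKP, 768 and 695 at MK3, 764 and 1006 at MK4, and 1552, 1348 and 1751 at MK6. The MK6 arrays were above all others, and p21 RNA rose by 1.15 ± 0.24 from MKP to MK6 (limma adjusted p = 0.0200). Cdkn2b, which encodes the Cdk4 inhibitor p15, had a signal of 6.54 and 9.69 at MKP, 67.1 and 60.3 at MK3, 30.4 and 15.7 at MK4, and 70.0, 73.3 and 86.7 at MK6. Its MK3 and MK6 arrays were above the filter and its MKP and MK4 arrays below it, so it was tested only through stages where it was high. With that limit, it was called higher at MK6 than at MKP (limma adjusted p = 0.0112). The pseudocount sets the size of this difference, 0.96 with 64 and 3.11 with 1. The hepatocyte sum was also high on both MK3 arrays, and the macrophage sum was highest on MK3 replicate 1. The part of these sums was not tested. Cdkn1c, which encodes p57, was high on MK3 replicate 1 (446) and at 7.46 to 66.1 on the other arrays, with a difference of -0.14 (limma adjusted p = 0.929).

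Of the retinoblastoma and E2F proteins, through which D- and E-type cyclins act on transcription, 10 of 13 were measured, 1 rose and 1 fell, with a median difference of -0.28. Rb1, the brake that cyclin D and E kinases release, was at 125 and 200 at MKP, 164 and 369 at MK3, 325 and 343 at MK4, and 558, 568 and 808 at MK6, a rise of 1.91 ± 0.34 (limma adjusted p = 0.0124). Its MK6 arrays were above every earlier array. E2f1, an activator of S-phase genes, was at 234 and 184 at MKP, 288 and 222 at MK3, 152 and 142 at MK4, and 112, 92.6 and 95.8 at MK6. Its MK6 arrays were below every earlier array, and it fell by 0.95 ± 0.24 (limma adjusted p = 0.0391). Values for E2f8, a repressor of the family, and Tfdp1, the dimer partner of E2Fs, differed by -1.64 and -1.09 without passing (limma adjusted p = 0.104 and 0.108). Against MK3, Cdkn1a rose at MK6 by 1.06 (limma adjusted p = 0.0451) and E2f1 fell by 1.22 (limma adjusted p = 0.0260), where 0.67% of genes were called higher and 1.72% lower. Both of these calls were lost without either MKP array, either MK3 array or MK6 replicate 3, and that of Cdkn1a also without either MK4 array (limma adjusted p = 0.0646 to 0.245 for Cdkn1a and 0.0530 to 0.274 for E2f1 where lost). In all, over 23 alternatives, the call of Cdkn1a against MK3 was lost in 16 and that of E2f1 in 9. For MK3 against MKP, MK4 against MK3, MK6 against MK4 and MK4 against MKP, limma called 0 of the 73 measured genes of the 8 lists, with 3, 2, 11 and 3 at an unadjusted p under 0.05, where 0.0639%, 0.0106%, 0.0213% and 0% of all genes were called.

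**Figure D4:**
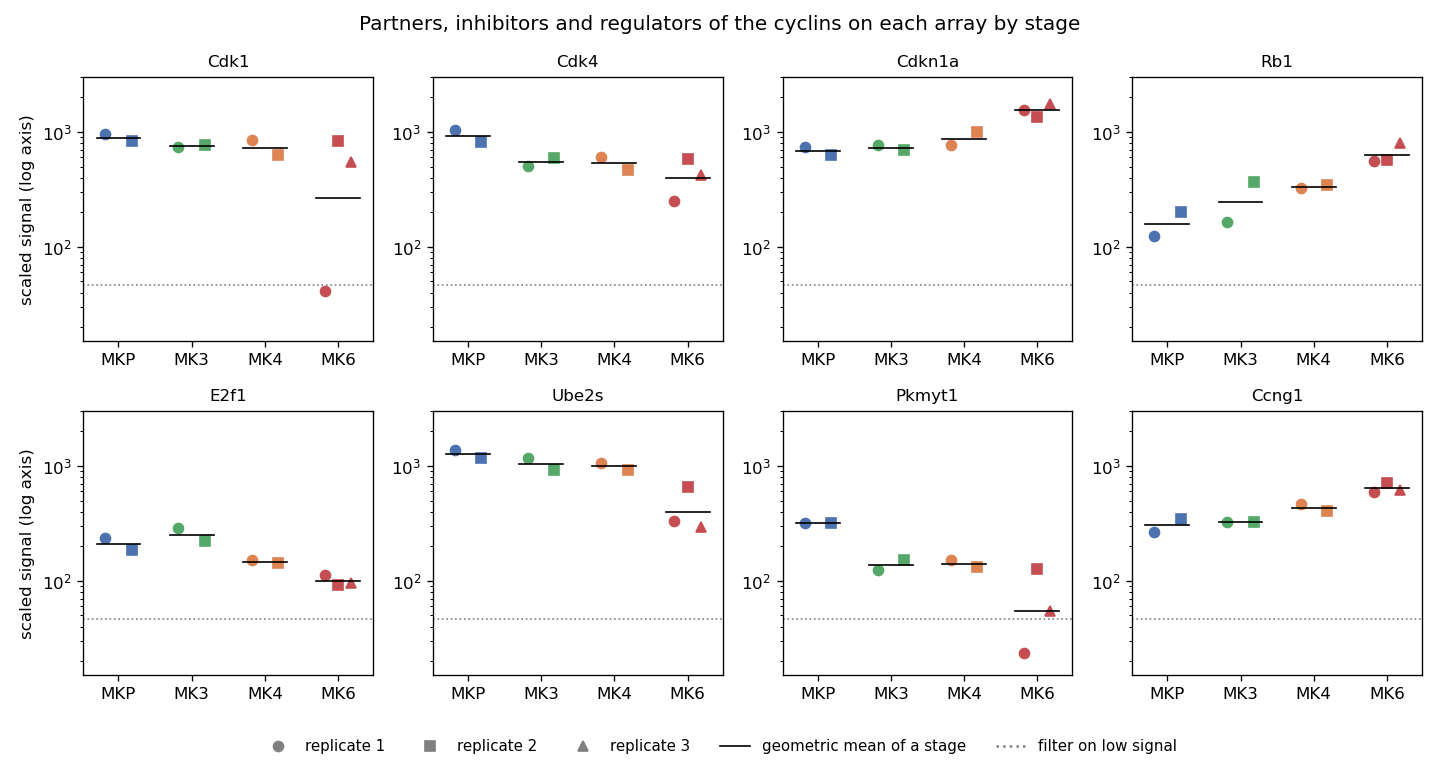
Scaled signal (log axis) of 8 genes that work with the cyclins on every array by stage; points are arrays, bars are geometric means of a stage, and the dotted line is the filter on low signal at 46.7. Cdkn1a, Rb1 and Ccng1 are higher at MK6 than on every earlier array, E2f1 and Ube2s are lower than on every earlier array, and Cdk1 is at 41.1 on MK6 replicate 1.

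Activators of mitotic cyclin genes, among them the NF-Y subunits that bind CCAAT, had 6 of 9 members measured and 0 called by limma (3 had an unadjusted p under 0.05), with a median difference of -0.45. Mybl2, which encodes a MYB protein of G2 genes, differed by -0.84 (limma adjusted p = 0.0853), and the NF-Y subunits Nfyb and Nfyc by -0.59 and -0.52 (limma adjusted p = 0.178 and 0.181). Of the anaphase-promoting complex and its regulators, which send cyclins A and B to destruction, 17 of 20 were measured, 0 rose and 2 fell, with a median difference of -0.31. Ube2s, the enzyme that lengthens ubiquitin chains for the complex, was at 1390 and 1177 at MKP and at 333, 654 and 293 at MK6, and fell by 1.64 ± 0.32 (limma adjusted p = 0.0172). Fzr1, which encodes the activator Cdh1, was at 269 and 271 at MKP and at 165, 135 and 103 at MK6, and fell by 0.96 ± 0.25 (limma adjusted p = 0.0428). Ube2c, which starts the chains, and Bub1b, a checkpoint kinase gene, differed by -1.93 and -1.88 (limma adjusted p = 0.0547 and 0.157). MK6 replicate 1 was the lowest MK6 array for 13 of these 17 genes, against 30.9% of all tested probe sets. The other lists varied. It was the lowest for 2 of 4 kinases, 3 of 6 inhibitors, 5 of 10 retinoblastoma and E2F genes and 1 of 6 activators. For the SCF ligase it was the lowest for 6 of 9, for the kinases and phosphatases of Cdks 6 of 9, and for other cyclins 5 of 12.

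The SCF ligase, which degrades cyclin E and the inhibitor p27, had 9 of 10 members measured, 0 called by limma (1 had an unadjusted p under 0.05), and a median difference of -0.01. Cks1b and Cks2, which encode small Cdk-binding proteins, differed by -1.24 and -0.93 (limma adjusted p = 0.248 and 0.274), and Fbxo4, an F-box gene, by 1.02 (limma adjusted p = 0.118). Of the kinases and phosphatases that set Cdk activity, 9 of 10 were measured, 0 rose and 1 fell, with a median of -0.70. The one that fell was Pkmyt1, a kinase that inhibits Cdk1, at 319 and 316 at MKP, 124 and 153 at MK3, 151 and 131 at MK4, and 23.7, 127 and 54.5 at MK6. It fell by 2.19 ± 0.43 (limma adjusted p = 0.0169), with every later array below both MKP arrays. The mitotic kinase genes Plk1 and Aurka differed by -1.07 and -0.94 (limma adjusted p = 0.0675 and 0.129).

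Other cyclins, most of which act outside the core cycle, had 12 of 17 members measured, 1 risen and 0 fallen, and a median difference of 0.05. Ccng1, a p53-induced cyclin gene, was at 265 and 349 at MKP, 328 and 328 at MK3, 465 and 402 at MK4, and 597, 716 and 612 at MK6, and rose by 1.03 ± 0.22 (limma adjusted p = 0.0238). Ccni and Ccng2 differed by -0.92 and 0.54 (limma adjusted p = 0.151 and 0.171). Second probe sets of Cdkn1a (1.43) and Ccng1 (1.69) also rose (limma adjusted p = 0.0155 and 0.0157), the other one of Ccng1 was at 0.93 (limma adjusted p = 0.102), and those of E2f1 (-0.60) and Pkmyt1 (-0.11) did not pass (limma adjusted p = 0.373 and 0.944). All 8 calls for MK6 against MKP, of Cdkn1a, Cdkn2b, Rb1, E2f1, Fzr1, Ube2s, Pkmyt1 and Ccng1, rested on both MKP arrays. With either one left out, all 8 were lost, and so were nearly all calls over all probe sets. The lone MKP array is then assumed to vary like the other stages. The loss is thus a limit on these calls but is not particular to these genes. Without MK6 replicate 3, 6 of the 8 were lost, and 2.18% of all probe sets were called. Rb1 was kept, and so was Cdkn2b, which passed the filter only through its MK3 and MK6 arrays. The call of Fzr1 was also lost without either MK3 array, and those of Fzr1 and E2f1 without either MK4 array (highest limma adjusted p = 0.0700). The neutrophil sum was lower on MK6 replicates 1 and 3 than on every earlier array. The megakaryocyte sum, whose markers did not all rise, was above that of MKP on each MK6 array. The part of both sums in these differences was not tested.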

How the data were processed

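Values are linear probe set intensities as deposited. Per the submitters' processing notes the tool was MAS5, of a version not given in the sources here. Trimmed means of the 9 arrays (2% off each end) ran from 102 to 221, so each array was multiplied to 161. This removes any change in total RNA per cell. The pseudocount of 15.2 was the 20th percentile of scaled signals. Probe sets with 1 gene were kept if 2 or more arrays exceeded 46.7, the 40th percentile (14516 of 20380). The table held 22690 probe sets: 64 controls, 691 with several genes and 1555 with no gene name here were left out.

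A mean per stage was fitted to all 9 arrays with limma 3.58.1 in R 4.3.3 (eBayes, trend on intensity, 5 residual degrees of freedom), tested on simulated data. List genes were read by their brightest probe set, with p adjusted over all probe sets. The precision is limited by the number of arrays. Symbols came from the platform annotation, and sequences from RefSeq tables. From each list the 3 measured genes farthest from 0 for MK6 against MKP were named, with the 3 genes of highest r for each cyclin. Called list genes outside that rule (E2f1, Fzr1), the markers Elane and S100a9 and the course of Ccne1 were chosen after their values were seen. MK6 replicate 1 is the array whose title has no replicate number. The members and lists were chosen with earlier results of these data known. Alternatives were 3 scalings, 2 pseudocounts, 2 filters, gene-level testing, 3 variance models, a beta-actin covariate, and arrays left out.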

Additional observations from a re-analysis of the deposited data

How the results depend on the processing

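The count of cyclin probe sets called for MK6 against MKP was 0 with all settings as reported and in 20 of 24 alternatives. It was 1 with a pseudocount of 64 (Ccna2 1417911_at, -1.61, limma adjusted p = 0.0374), ranged from 0 to 2 with single arrays left out, and was 6 without MK6 replicates 2 and 3, which leaves only MK6 replicate 1, assumes that it varies like the other arrays and called 18.8% of all probe sets. That setting also gave 3 calls for MK6 against MK4, 3 for MK6 against MK3 and 3 for the F test over the 4 stages, where 3.97%, 6.71% and 6.42% of all were called. The counts for MK3 against MKP, MK4 against MK3 and MK4 against MKP stayed at 0 in 24 alternatives each, and that of unequal pairs in 20. Leaving out MK6 replicates 1 and 3 was added after seeing the data.

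The sign of MK6 minus MKP turned for these probe sets. For Ccnd3 it was 0.13 with a beta-actin ratio covariate and 0.12 without MK6 replicates 1 and 3. For Ccnd1 1417419_at it was -0.16 with quantile normalization, -0.089 with a common median, -0.28 with no scaling, -0.0096 with a pseudocount of 1, -0.59 with the covariate, -0.74 without MK6 replicates 1 and 3, and -0.27 to 0.39 with single arrays left out. For Ccnd1 1417420_at it was 0.084 without MK6 replicates 1 and 3, and -0.39 to 0.24 with single arrays left out. For Ccnd2 1448229_s_at it was -0.062 with a common median, -0.28 with no scaling, -1.27 with the covariate, -0.31 without MK6 replicates 2 and 3, -0.67 without MK6 replicates 1 and 3, and -0.49 to 0.41 with single arrays left out. Ranges with single arrays left out were -0.87 to 0.27 for Ccnd2 1434745_at, -0.70 to 0.35 for Ccnd2 1455956_x_at and -1.75 to 0.11 for Ccnb2, which was 0.21 without MK6 replicates 1 and 3. The cause was not tested.

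The median of all tested probe sets for MK6 against MKP was 0.08 as reported, 0.04 with quantile normalization, -0.04 with a common median and -0.25 with no scaling. Of the 8 list genes called for MK6 against MKP, 6 were called with a common median (5.73% of all probe sets) and 2 with no scaling (3.8%). With only the 2 stages 5 were called (4.35% of all), and 6 each with no filter (3.89%) and no intensity trend (5.69%). With the covariate, 0 of the 8 and 0 of all 14516 probe sets were called. The beta-actin ratio was higher on every MK6 array than on any other array, so this fit cannot tell it apart from the stage. Fits that leave a lone MK6 array are not counted here, because that array is assumed to vary like the others. Over 23 alternatives, E2f1 lost its call in 12 and Fzr1 in 14. No paired analysis was possible because the replicate numbers were given in the order of deposit and pair no arrays. Signals near the filter, as for Ccne2 and the 2 dim Ccnd1 probe sets, limit what could be seen.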
